A study of Mus musculus with 6 samples.

Results

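Histone genes of 2 kinds were followed in *Dicer1*-null mouse ES cells that had received miR-294. The first kind is the clustered genes, whose array names begin with HIST1H to HIST4H. The second is the linker and replacement variant genes that stand alone in the genome, whose array names begin with H1F, H2F or H3F. All probes with such a name were taken, which gave 65 gene names of the 30774 on the array. The clustered genes made up 59 of these names with 89 probes, and the H1F and H3F genes 6 names with 9 probes, while no name began with H2F. The rule that picked these 98 probes reads their names and no measured value. A probe was tested where its detection score, the share of the array's negative controls that it exceeded, was above 0.99 on at least 3 of the 6 arrays. This left 52 clustered probes for 40 names and 7 H1F and H3F probes for 4 names, of 14621 tested probes on the array.

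The ES cells were of the 129/SvEv strain and lacked both *Dicer1*, and with it mature miRNAs, and the endogenous *Ago2*. Both alleles had been excised with Cre, and a myc-tagged Ago2 was expressed from a transgene under the CAG promoter in a clone grown from a single colony. The cells were cultured without feeders in medium with LIF. Each of 6 transfections contained 300 pmol of a miRNA mimic and 1 µg of the GFP plasmid pEGFP-1, and GFP-positive cells were sorted after 24 hr. The mimic was miR-294 in 3 samples and cel-239b, a *C. elegans* miRNA, in the 3 controls, and the descriptions of the groups differ in nothing else. They were cells of a line and not separate animals, and *p*-values therefore measure only the spread between these samples. A log fold change is the mean log2 normalised intensity with miR-294 less that with cel-239b.

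Histones package DNA into nucleosomes, in which pairs of H2A, H2B, H3 and H4 form the core and the linker histone H1 binds where DNA enters and leaves. The clustered genes are replication-dependent: they are transcribed mainly in S phase, and most of their mRNAs end in a stem-loop bound by SLBP instead of a poly(A) tail. Replacement genes such as *H3f3a*, *H3f3b* and *H1f0* give ordinary polyadenylated mRNAs throughout the cell cycle. The cRNA for these arrays was primed from poly(A), so the values reflect the primed share of clustered histone transcripts and not the whole pool. ES cells cycle rapidly with a short G1 phase, and miR-294 belongs to the miRNA family known to promote their passage from G1 to S phase. For these reasons the response of histone genes to the mimic is of interest.

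The mature miRNA introduced into the cells is shown because it is the treatment compared with the control. It is 22 bases long and is encoded on the plus strand of chromosome 7 (RefSeq, GRCm38.p6), and the capitals mark the seed, bases 2 to 8.
mmu-miR-294-3p (chr7:3220691-3220712): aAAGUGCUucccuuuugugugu

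The array names of all 65 genes were matched to RefSeq genes of GRCm38.p6, 3 by the current symbol and 62 by a synonym. Of these, 46 lie on chromosome 13, which holds the *Hist1* cluster, 9 on chromosome 3, 4 on chromosome 11, 3 on chromosome 6, 2 on chromosome 15 and 1 on chromosome 1. The 250 bases before the transcription start are shown for 3 clustered genes with a decreased probe, the H2A gene with the largest decrease, the linker gene and the H4 gene, and for the replacement H3 gene *H3f3b*. Capitals mark 3 motifs on either strand. The first is CCAAT, the core of the CCAAT box. The next is TATAAA, a form of the TATA box. The last is ATTTGCAT, the octamer bound by Oct factors. Each sequence runs 5′ to 3′ in the direction of its gene.
HIST1H2AE (now H2ac8, chr13:23571221-23571470, minus strand): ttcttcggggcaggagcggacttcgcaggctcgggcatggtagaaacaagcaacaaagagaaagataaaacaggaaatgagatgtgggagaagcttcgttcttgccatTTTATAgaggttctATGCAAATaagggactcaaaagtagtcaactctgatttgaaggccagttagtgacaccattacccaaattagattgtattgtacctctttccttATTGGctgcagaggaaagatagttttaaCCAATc
HIST1H1C (now H1f2, chr13:23738557-23738806, plus strand): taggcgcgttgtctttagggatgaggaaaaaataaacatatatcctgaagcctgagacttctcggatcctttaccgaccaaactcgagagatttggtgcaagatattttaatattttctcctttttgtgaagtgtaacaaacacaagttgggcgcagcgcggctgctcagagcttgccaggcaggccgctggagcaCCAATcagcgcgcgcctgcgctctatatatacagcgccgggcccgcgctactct
HIST1H4F (now H4c6, chr13:23551669-23551918, minus strand): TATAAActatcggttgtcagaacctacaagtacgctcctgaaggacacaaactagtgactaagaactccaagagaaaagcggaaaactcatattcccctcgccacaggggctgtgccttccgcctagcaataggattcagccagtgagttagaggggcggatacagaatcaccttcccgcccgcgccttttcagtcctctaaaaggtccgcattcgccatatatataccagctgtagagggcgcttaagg
H3F3B (chr11:116024505-116024754, minus strand): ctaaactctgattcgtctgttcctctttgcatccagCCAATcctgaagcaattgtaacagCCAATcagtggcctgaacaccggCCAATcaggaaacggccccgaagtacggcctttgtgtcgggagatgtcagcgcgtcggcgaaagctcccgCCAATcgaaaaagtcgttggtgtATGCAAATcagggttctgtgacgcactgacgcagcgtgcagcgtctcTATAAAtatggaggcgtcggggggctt

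Over the windows of 300 bases in RefSeq, 250 before the start and 50 after it, CCAAT on either strand was found in 46 of 54 windows of clustered genes (85.2%), against 37.4% of the 32851 windows of all genes. TATAAA was found in 57.4% of the clustered windows and in 13.6% of all windows, and ATTTGCAT in 25.9% and 1.74%. The octamer occurred in 7 of 17 H2A windows and 7 of 13 H2B windows and in none of the H1, H3 or H4 windows. CCAAT occurred in each H1, H2A, H2B and H3 window but in only 3 of 11 H4 windows. A divergent H2A gene and H2B gene less than 300 bases apart share sequence between their windows, so these counts are not of separate sequences. Of the 5 windows of genes with a lower probe, 4 held CCAAT, 4 held TATAAA and 2 held the octamer, against 27, 17 and 5 of the 32 windows of tested genes without one. These matches are descriptions of the letters and not of sites in use.

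On each array, 30.6% to 32.9% of all 45281 probes were detected, the median signal was between 62.2 and 72.4, and the median probe was measured by 44 beads (18 to 72 beads for the histone probes). The 8 ES cell markers with a probe, among them *Pou5f1*, *Sox2* and *Nanog*, were detected on all 6 arrays. Their summed signal, background-corrected, offset and quantile normalised, was 53759 to 55688 on the cel-239b arrays and 59515 to 60367 on the miR-294 arrays. This sum and those below take in only probes detected on 3 or more arrays. Markers of other cell types were mostly not detected. Of 4 trophoblast markers on the array, *Cdx2* and *Eomes* were detected on all arrays and *Elf5* and *Hand1* on none. The sum over *Cdx2* and *Eomes* was 205 to 209 with cel-239b and 300 to 328 with miR-294. Of 5 markers of primitive endoderm, only *Sox7* was detected on 3 or more arrays, with a sum of 209 to 241 and 346 to 376. Of 5 feeder fibroblast markers only *Thy1* was (42.1 to 49.2 and 90.2 to 98.8), and *Col1a1*, *Col1a2*, *Col3a1* and *Postn* were on no array. Of 3 mesoderm markers only *T* was (40.7 to 45.5 and 75.4 to 78.8). These sums were higher with miR-294 for each of the 5 lists, and their part in the histone results was not tested. No marker of the feeder fibroblast or mesoderm list was detected on all 6 arrays. *Thy1* and *T* could enter through the arrays where they were high, which favours a higher sum there.

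With miR-294, a few clustered histone genes were slightly lower, most did not pass the test, and none was higher. Of the 52 tested clustered probes, 6 were lower by the limma test at a threshold of 0.05 on the *p*-value adjusted over all tested probes (Benjamini-Hochberg), 0 were higher and 46 did not pass. These 6 probes for 5 genes make up 11.5%, where 16.3% of all tested probes were lower, so the share of lower probes was near the background and not above it. Among all tested probes 16% were higher and 32.3% passed in either direction. At the *B*-statistic above 5 that the study's methods use, 0 clustered probes passed in limma, against 1.47% of all tested probes. Without adjustment, 10 clustered probes had a *p*-value below 0.05 in limma, all lower (19.2%, compared with 21.6% of all tested probes that were lower at this level). One of the 6, for HIST2H2AA1, passed the detection filter only through the cel-239b arrays, where it was high. Without probes detected in a single group only, 5 of 51 clustered probes were lower (9.80%), compared with 15.9% of all such probes. With no detection filter, which adds dim probes to the adjustment, 2 of the 6 were still called, HIST1H2AE and HIST2H2AA1. Leaving out a single array lowered the count of lower clustered probes to between 1 and 3 (1.92% to 6%, where 11.1% to 15.9% of all tested probes were lower). A count of 1 was found on leaving out cel-239b replicate 2, miR-294 replicate 1 or miR-294 replicate 3. The count was 2 on leaving out cel-239b replicate 3, and 3 for cel-239b replicate 1 or miR-294 replicate 2. Without cel-239b replicate 1 only HIST1H2AE of the 6 probes was kept, and HIST1H3G probe 4850040 and HIST1H4F probe 6380377 were called in addition. Without cel-239b replicate 3 it was again HIST1H2AE that was kept, and HIST1H4J probe 3870630 was added.

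The changes were small. Log fold changes of the clustered probes ran from -0.39 to 0.12 with a median of -0.062, and the median over all tested probes was 0.011. In total, 41 of the 52 clustered probes (78.8%) had a value below 0, compared with 48.2% of all tested probes. The probes share arrays and normalization and some share nearly the same sequence, so they are not independent measurements of a shift. The median moved to -0.026 without cel-239b replicate 1 and to -0.024 without miR-294 replicate 3, when 36 of 50 and 33 of 51 clustered probes were below 0. The 95% confidence interval of 51 clustered probes lay within 0.5 of 0 on the log2 scale, and that of 25 within 0.25. On 14 clustered probes every miR-294 array lay below every cel-239b array (26.9%, compared with 23.6% of all tested probes), and on 0 probes every miR-294 array lay above (24.3% of all tested probes). In RNA from bulk cells, fewer cells of a type, such as cells in S phase, and less RNA per cell cannot be told apart.

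**Figure D1:**
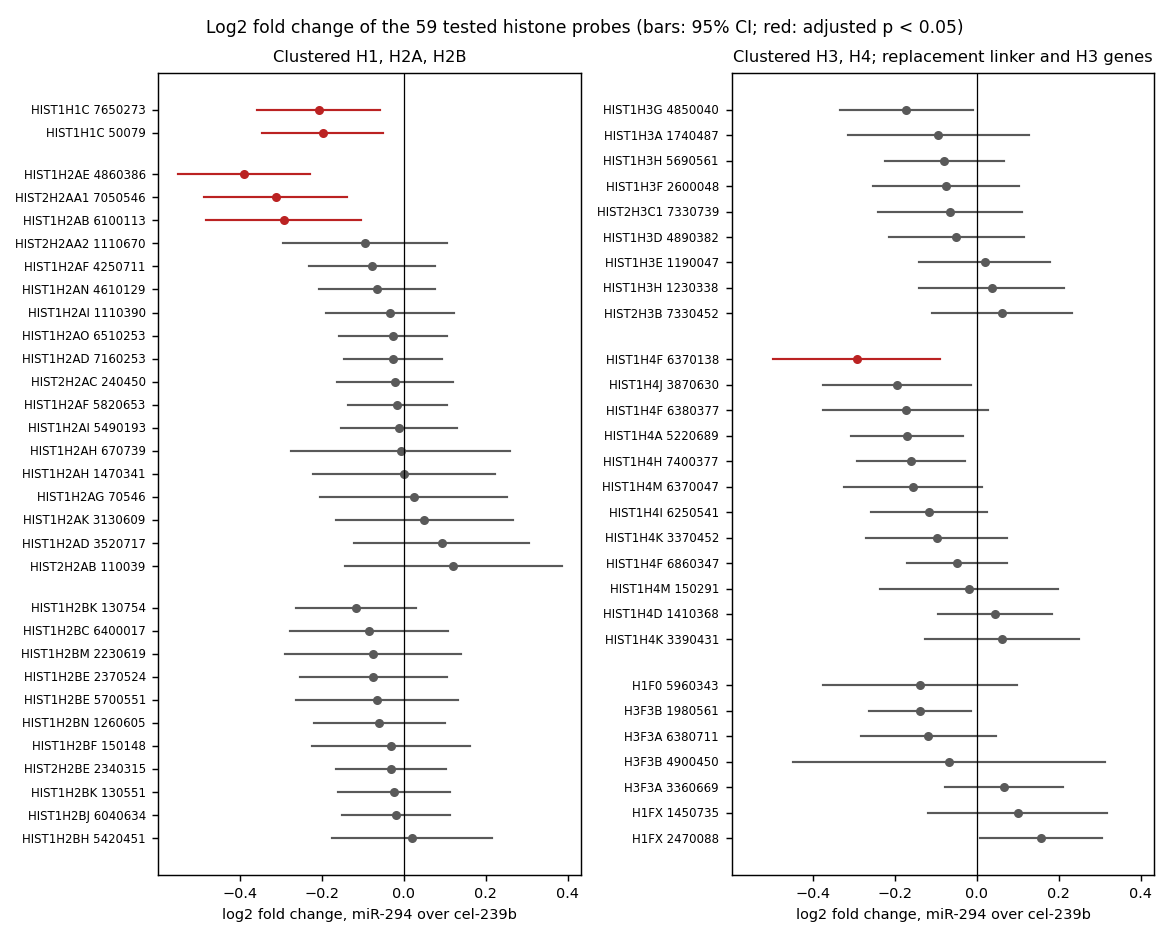
Log2 fold change (miR-294 over cel-239b, horizontal axis) of each of the 59 tested histone probes, named by gene and probe number and grouped by family. Points are estimates and bars are 95% confidence intervals from limma with 3 arrays per group; the 6 red probes had an adjusted *p*-value below 0.05, all of them to the left of 0, between -0.39 and -0.20.

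The linker histone HIST1H1C (now *H1f2*), whose protein is a major somatic H1, was the only clustered H1 gene with a tested probe. Both of its probes passed the test, and both were lower with miR-294. Probe 7650273 measured 8.85, 8.97 and 8.84 on the cel-239b arrays and 8.63, 8.68 and 8.75 on the miR-294 arrays. Probe 50079 measured 8.94, 8.90 and 8.85 with cel-239b and 8.61, 8.74 and 8.75 with miR-294. All miR-294 arrays lay below all cel-239b arrays for both probes, and the gap between the groups was narrower than the range of the miR-294 arrays. The log fold change was -0.21 for probe 7650273 (limma adjusted *p* = 0.044, SE 0.06), which is 1.15-fold lower. It was -0.20 for probe 50079 (limma adjusted *p* = 0.049, SE 0.06). These calls lay at the threshold: with any single array left out neither probe passed, and the limma adjusted *p*-values were 0.056 to 0.13 and 0.074 to 0.13. Median scaling also took both to an adjusted *p* of 0.11, and testing all probes detected on at least 1 array to 0.051 and 0.057. The direction held in each fit with an array left out, with log fold changes of -0.23 to -0.17 and -0.22 to -0.15. Probes for the other 5 clustered linker names, HIST1H1A, HIST1H1B, HIST1H1D, HIST1H1E and HIST1H1T (the testis-specific H1), did not pass the detection filter.

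The largest decrease among the histone genes was that of HIST1H2AE (now *H2ac8*), a replication-dependent H2A gene that shares its upstream region with HIST1H2BG. Its probe measured 7.05, 7.25 and 7.16 with cel-239b and 6.80, 6.79 and 6.70 with miR-294. The groups did not overlap, and the lowest control array was 0.25 above the highest miR-294 array. The log fold change was -0.39 (limma adjusted *p* = 0.0056, SE 0.07), which is 1.31-fold lower. It was the only histone probe that passed with each of the arrays left out in turn and under each of the other settings of normalization, filter and model at this threshold, with log fold changes between -0.44 and -0.24 and adjusted *p*-values between 0.0030 and 0.024. The probe for HIST1H2BG, whose start lies 180 bases away on the other strand, was not tested.

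Of the 18 tested H2A probes 3 were lower (16.7%), near the 16.3% of all tested probes. The 2 besides HIST1H2AE both had signals near the background. HIST2H2AA1 (now *H2ac18*, chromosome 3) measured 5.71, 5.94 and 5.85 with cel-239b and 5.48, 5.60 and 5.49 with miR-294. It was detected on all 3 cel-239b arrays and on 0 miR-294 arrays, and its change is therefore given as a bound, at least 1.11-fold lower with the normalization used here, taking on each miR-294 array the dimmest detected probe in place of its own signal (adjusted *p* = 0.018 from limma). It entered the test only through the group where it was high, which favours a call, so this *p*-value is not support for a decrease. HIST1H2AB (now *H2ac4*) measured 5.71, 5.96 and 5.78 with cel-239b and 5.51, 5.46 and 5.61 with miR-294. This gave -0.29 for the log fold change (limma adjusted *p* = 0.030, SE 0.08). It was detected on 2 of the cel-239b arrays and 1 of the miR-294 arrays. For both probes the groups did not overlap. Without cel-239b replicate 3, HIST1H2AB gave an adjusted *p* of 0.065, without miR-294 replicate 1 of 0.077 and without miR-294 replicate 2 of 0.088. HIST2H2AA1 gave 0.057 without miR-294 replicate 1, 0.028 without miR-294 replicate 2 and 0.055 without miR-294 replicate 3 (limma). With any other array left out, neither probe reached detection on 3 arrays. Without background correction HIST1H2AB gave -0.14 (adjusted *p* = 0.074), and with a variance-stabilizing transformation -0.11 (0.10). The call of HIST2H2AA1 was lost with these settings too (0.053 and 0.079).

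**Figure D2:**
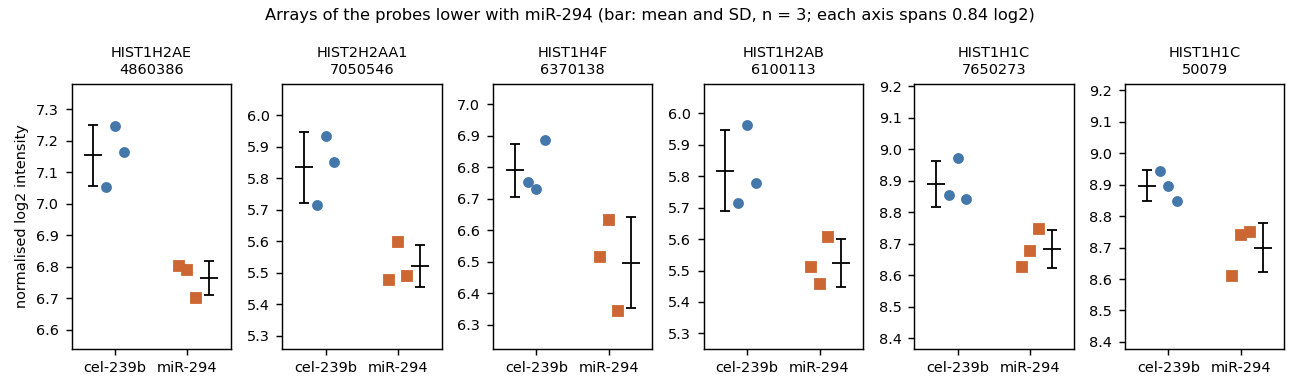
Normalised log2 intensity (vertical axis) of the 6 clustered histone probes that were lower with miR-294, with a point for each array (circles cel-239b, squares miR-294) and bars for the mean and SD of 3 arrays. Each panel spans the same range of log2 units, and in each the miR-294 arrays lie below the cel-239b arrays.

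The other 15 H2A probes did not pass, and their log fold changes lay between -0.09 and 0.12. Among them were 12 probes for 8 genes with a mean log2 intensity of 13 or more, for HIST1H2AD, HIST1H2AF, HIST1H2AH, HIST1H2AI, HIST1H2AK, HIST1H2AN, HIST1H2AO and HIST2H2AC. Their deposited signals were 12506 to 39685, and at most 0.55% of the probes of an array were brighter than the dimmest of them. The 12 probes gave a median log fold change of -0.019, and their 95% confidence intervals lay between -0.27 and 0.31. The groups overlapped on each of the 12. Genes of the H2A family are nearly identical in coding sequence, and the probes may share targets, so these 12 values may measure overlapping sets of transcripts. Signals this close to the highest on the array (36666 to 40919) may also be compressed, which was not tested.

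**Figure D3:**
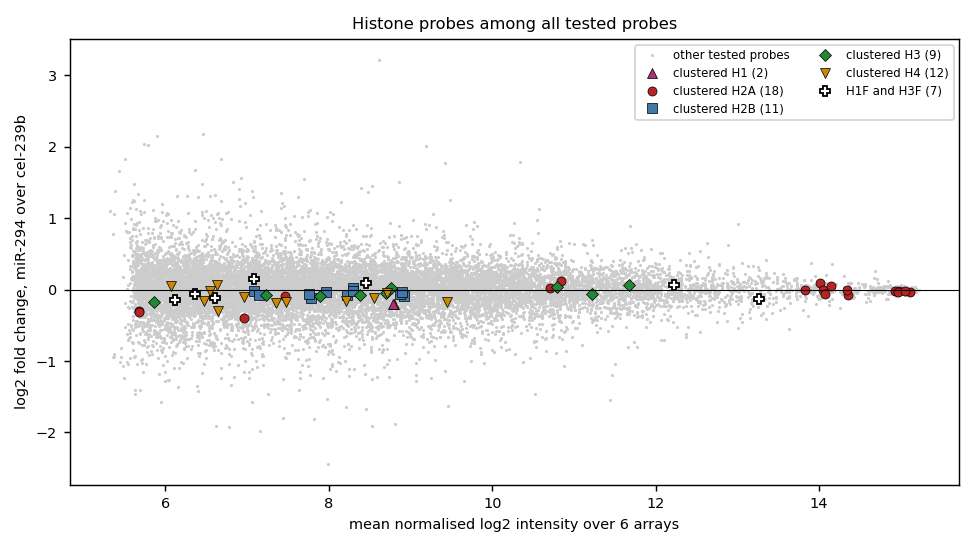
Log2 fold change (vertical axis, miR-294 over cel-239b) against the mean normalised log2 intensity over the 6 arrays (horizontal axis) for all 14621 tested probes, with the histone families in colour. The 12 bright H2A probes lie at an intensity above 13 with log fold changes between -0.08 and 0.09, and the 3 lower H2A probes lie below 7.

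The clustered probes were also counted by brightness. Of the 10 below a mean log2 intensity of 7, 4 were lower (40.0%), compared with 14.6% of all tested probes in that range. Without probes detected in a single group only, which leaves out HIST2H2AA1, the counts were 3 of 9 (33.3%) and 13.1%. The 4 were the probes for HIST1H2AE, HIST2H2AA1, HIST1H2AB and HIST1H4F, and HIST1H2AE was the only clustered probe still called without cel-239b replicate 2, miR-294 replicate 1 or miR-294 replicate 3. Of the 25 between 7 and 10, 2 were lower (8%, all probes 18.0%), both for HIST1H1C, and 23 had a value below 0. Of the 5 between 10 and 13 and the 12 at 13 or more, none passed in limma, where 16% and 6.62% of all tested probes in these ranges were lower, and none had an unadjusted *p*-value below 0.05. The difference between the ranges was not tested.

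H2B and H3 genes, which encode the other partners of the nucleosome core, showed no called change with the normalization and arrays used here. For H2B, 0 of 11 tested probes for 9 genes passed in limma, where 32.3% of all tested probes did, and none had an unadjusted *p*-value below 0.05. Of these, 10 had values below 0 (90.9%, all probes 48.2%), with a range of -0.12 to 0.02 and 95% confidence intervals between -0.29 and 0.22. The H2B genes HIST1H2BF, HIST1H2BJ, HIST1H2BK and HIST1H2BN each have a divergent H2A neighbour that was also tested, with starts 164 to 249 bases apart, and no probe of these 4 pairs passed. For H3, 0 of 9 tested probes for 8 genes passed, compared again with 32.3% of all, and 1 had an unadjusted *p*-value below 0.05 (limma). The H3 range was -0.17 to 0.06, with 6 probes below 0 and intervals between -0.33 and 0.23. The lowest was HIST1H3G probe 4850040 (-0.17, limma adjusted *p* = 0.097), which was called lower with array quality weights and without cel-239b replicate 1.

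For H4, the partner of H3, 12 probes for 8 genes were tested. Of these, 10 had a log fold change below 0 (83.3%, compared with 48.2% of all tested probes), and the median of the 12 was -0.14. On 7 of the 12, all miR-294 arrays lay below all cel-239b arrays (58.3%, all probes 23.6%). In limma 4 had an unadjusted *p*-value below 0.05, each of them lower (33.3%, all probes 21.6%), and 1 passed the adjusted threshold as lower (8.33%, all probes 16.3%). This was HIST1H4F (now *H4c6*) probe 6370138, which measured 6.75, 6.73 and 6.89 with cel-239b and 6.51, 6.63 and 6.34 with miR-294. The groups did not overlap, although the miR-294 arrays were spread over 0.29 log2 units. The log fold change was -0.29 (limma adjusted *p* = 0.038, SE 0.09), which is 1.23-fold lower. The other 2 probes for this gene gave -0.17 (adjusted *p* = 0.16) and -0.05 (adjusted *p* = 0.51), and the first of these, probe 6380377, was called lower without cel-239b replicate 1. The call was kept without miR-294 replicate 2 (adjusted *p* = 0.028) and lost without any of the other arrays. The adjusted *p*-value was 0.055 when cel-239b replicate 1 was left out, 0.066 for cel-239b replicate 2, 0.12 for cel-239b replicate 3, 0.081 for miR-294 replicate 1 and 0.094 for miR-294 replicate 3. Its log fold change was -0.18 without background correction and -0.16 with a variance-stabilizing transformation, with the call kept, and the call was lost with no detection filter (adjusted *p* = 0.091). The 11 H4 probes that did not pass ranged from -0.19 to 0.06, with 95% confidence intervals between -0.37 and 0.25. Among them HIST1H4A probe 5220689 (-0.17, limma adjusted *p* = 0.061) was called lower without background correction, with cyclic loess and with the variance-stabilizing transformation, and HIST1H4J probe 3870630 (-0.19, adjusted *p* = 0.094) without cel-239b replicate 3.

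**Figure D4:**
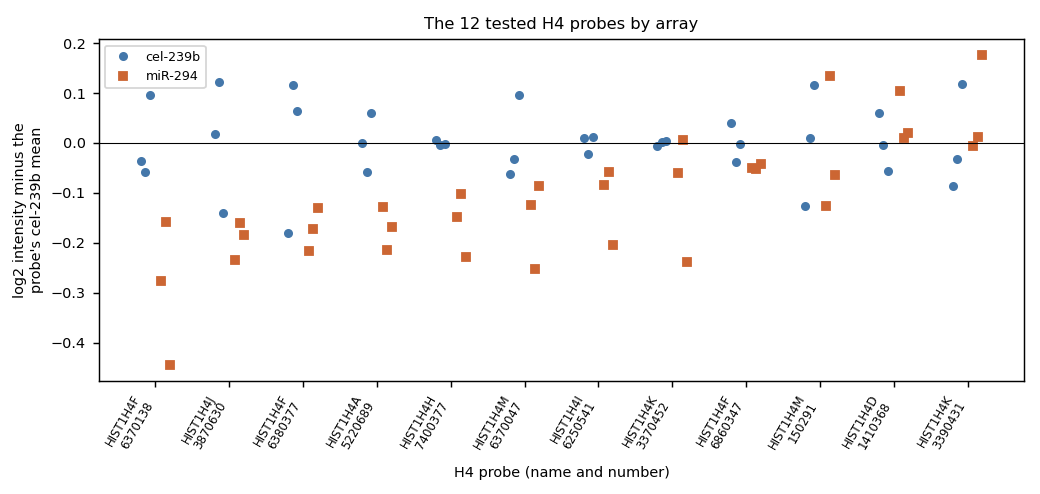
Log2 intensity of the 12 tested H4 probes on each array, less the mean of the 3 cel-239b arrays for that probe (vertical axis), ordered by log fold change. Circles are cel-239b and squares miR-294 arrays. The groups do not overlap on 7 probes, and HIST1H4F probe 6370138 has the widest separation of the means.

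Probes of the same gene did not always share a direction. Of 11 clustered genes with several tested probes, 7 had all probes on the same side of 0. HIST1H4K and HIST1H2AD, for example, each had a probe on either side. These 2 examples were chosen after their values were seen.

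Replacement and stand-alone linker genes did not change past the threshold. In limma, 0 of 7 tested H1F and H3F probes passed in either direction, compared with 32.3% of all tested probes. Their median was -0.067, and 2 had an unadjusted *p*-value below 0.05, 1 in each direction. H3F3B encodes the H3.3 variant, which is deposited outside of replication. Its probe 1980561 measured 13.32, 13.31 and 13.35 with cel-239b and 13.17, 13.16 and 13.24 with miR-294, without overlap. The log fold change was -0.14 (limma adjusted *p* = 0.086, SE 0.05). The second H3F3B probe gave -0.07 with a standard error of 0.16, and turned positive without cel-239b replicate 1 (0.08) or miR-294 replicate 1 (0.02). H3F3A encodes the same protein, and its 2 probes gave 0.07 (95% confidence interval -0.08 to 0.21) and -0.12 (-0.28 to 0.05).

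H1FX (now *H1f10*), a linker variant, was measured by 2 probes. Probe 2470088 measured 6.92, 7.01 and 7.07 with cel-239b and 7.22, 7.11 and 7.15 with miR-294, and this was the only tested histone probe on which all miR-294 arrays lay above all control arrays. Its log fold change was 0.16 (limma adjusted *p* = 0.10, SE 0.06), and that of the other H1FX probe 0.10 (95% confidence interval -0.12 to 0.32). H1F0, a linker variant associated with cells that leave the cycle, measured 5.95, 6.32 and 6.28 with cel-239b and 6.03, 6.03 and 6.07 with miR-294. The lowest of these 6 values was that of cel-239b replicate 1. The log fold change was -0.14 (limma adjusted *p* = 0.33, SE 0.10) over all arrays and -0.26 (adjusted *p* = 0.019) without cel-239b replicate 1.

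A further 39 histone probes were not tested. Of these, 38 were detected on no array and 1, for HIST2H2AC, on 1 array, with signals of 46.4 to 111.5. For 21 names no probe was tested. These were H1FNT and H1FOO, linker genes of the male and female germ line, the 5 HIST1H1 names given above, HIST1H2AA, HIST1H2AC, HIST1H2BA, HIST1H2BB, HIST1H2BG, HIST1H3C, HIST1H4B, HIST1H4C, HIST2H2BB, HIST2H4, HIST3H2A, HIST3H2BA, HIST3H2BB and HIST4H4. With no detection filter, 2 of the 39 had an adjusted *p*-value below 0.05 as lower with miR-294, HIST1H3C probe 4860209 (0.048) and HIST2H2BE probe 2510379 (0.042, limma). At that setting 4.49% of the 89 clustered probes and 4.5% of all 45281 probes were lower. Both of the probes named were detected on no array, with signals of 69.5 to 91.7 and 74.2 to 100.6, so no fold is given. These values say nothing on the level of the non-polyadenylated transcripts.

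Genes that handle histones were compared with them from lists written by hand. Of the variant genes outside the 2 naming rules, 9 probes for 6 genes were tested, and 1 was higher (11.1%, all probes 16%) and 0 lower (all probes 16.3%). It was *H2afz*, the H2A.Z variant found at promoters, with a log fold change of 0.22 (limma adjusted *p* = 0.025, SE 0.06). The call was kept without cel-239b replicate 1 or miR-294 replicate 3 and was lost without any of the other arrays, at adjusted *p*-values of 0.069 to 0.075.

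Histone chaperones, which carry histones to and from DNA, were higher on 9 of 30 tested probes (30.0%) and lower on 2 (6.67%), compared with 16% and 16.3% of all tested probes, and their median was 0.17. The 30 probes stood for 18 genes, of which 6 had a higher probe and 2 a lower one. Among all 10613 tested gene names these counts were 1922 and 2021. The nucleosome assembly protein *Nap1l1* was higher on 2 of 3 probes, by 0.68 (adjusted *p* = 0.00073 from limma) and 0.32 (adjusted *p* = 0.0084). The third *Nap1l1* probe gave -0.12 (adjusted *p* = 0.19), with all miR-294 arrays below all cel-239b arrays. *Rbbp4*, a subunit of CAF-1, was higher on 2 of 3 probes, by 0.42 on both (adjusted *p* = 0.016 and 0.021), and the third gave 0.40 (0.066). The first was lost without miR-294 replicate 1 (0.051). *Rbbp7*, which partners the acetyltransferase Hat1, gave opposite calls on 2 of 4 probes, 0.44 for probe 2650598 (adjusted *p* = 0.027) and -0.28 for probe 4760131 (adjusted *p* = 0.013). The first of these was lost when cel-239b replicate 2, cel-239b replicate 3, miR-294 replicate 1 or miR-294 replicate 2 was dropped (0.077 to 0.089), and the second was kept with each array left out. Of 10 other settings the first passed under 9, with adjusted *p*-values up to 0.076 (limma). The other 2 *Rbbp7* probes gave 0.42 and 0.33 (adjusted *p* = 0.071 and 0.11). *Nasp*, which holds the reserve of soluble H3 and H4, was higher on 2 of 4 probes, by 0.35 (adjusted *p* = 0.0026) and 0.28 (adjusted *p* = 0.018). The second was lost when cel-239b replicate 2, miR-294 replicate 2 or miR-294 replicate 3 was dropped (0.056 to 0.061). The other 2 *Nasp* probes, at 0.29 and 0.40 with standard errors of 0.22 and 0.23, passed only without cel-239b replicate 1 (adjusted *p* = 0.017 and 0.0015). *Asf1a*, an H3-H4 chaperone, fell by 0.45 on the log2 scale (adjusted *p* = 0.020). This call was lost without miR-294 replicate 1 or 2 (0.061 and 0.062) or with no detection filter (0.057). Under the other settings the log fold change of *Asf1a* was -0.47 to -0.21. The paralog *Asf1b*, the form of dividing cells, gave -0.18 (adjusted *p* = 0.11, and 0.041 without cel-239b replicate 1), and the CAF-1 subunit *Chaf1a* gave -0.11 (adjusted *p* = 0.29).

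For transcription of histone genes and processing of their mRNAs, 18 probes for 10 genes were tested. Of these, 3 were higher (16.7%, close to the 16% of all tested probes) and 0 lower (16.3% of all). Both probes for *Zfp473*, a U7 snRNP-associated zinc finger protein that acts in histone pre-mRNA processing, rose, by 0.59 and 0.54 (adjusted *p* = 0.00076 and 0.00083 from limma). *Cpsf2*, a component of the 3′ end cleavage complex, rose by 0.24 (adjusted *p* = 0.031). Its call was kept without cel-239b replicate 3 or miR-294 replicate 1 and was lost without any of the other arrays (0.071 to 0.091). It was also lost with median scaling (0.14) or with no detection filter. Under the other settings the log fold change of *Cpsf2* was 0.15 to 0.24. *Npat*, the co-activator of histone genes that cyclin E-Cdk2 phosphorylates, gave -0.22 (adjusted *p* = 0.23, SE 0.13). The probes for *Slbp*, *Casp8ap2* and *Lsm11* were not detected on enough arrays to be tested.

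Genes of S phase and of the passage from G1 to S phase were higher on 18 of 72 tested probes (25.0%) and lower on 7 (9.72%), which is 34.7% in either direction, near the 32.3% of all tested probes (16% higher and 16.3% lower). The 72 probes stood for 41 genes, of which 14 had a higher probe and 4 a lower one. Among all 10613 tested gene names these counts were 1922 and 2021. The 3 probes for *Cdkn1a*, the Cdk inhibitor p21, fell, with log fold changes of -1.57, -1.63 and -1.65 (adjusted *p* between 2.2e-05 and 1.8e-04 from limma). The other 4 lower probes of the list, chosen for mention once the values were known, were for the transcription factors *E2f2* (-1.001 and -0.83, adjusted *p* = 0.0010 and 0.0021) and *E2f1* (-0.33, 0.0044) and for the pocket protein *Rbl1* (-0.85, 4.0e-04). The cyclins *Ccne1* and *Ccne2* rose by 0.53 and 0.64 (adjusted *p* = 0.0010 and 0.0011), and *Mcm10*, a replication initiation factor, rose by 0.64 and 0.40 on its 2 probes (adjusted *p* = 0.0023 and 0.0018). The helicase subunit *Mcm4* had a bright probe, detected on all arrays, that did not pass (0.09, adjusted *p* = 0.20). The other *Mcm4* probe was detected on 0 cel-239b arrays and all 3 miR-294 arrays and was at least 1.15-fold higher (adjusted *p* = 0.019). It entered the test only through the group where it was high, and without it 17 of 71 probes of the list were higher (23.9%). This call was lost without cel-239b replicate 2 or 3 (0.063 and 0.068) or with no detection filter (0.062). *Mcm2* gave 0.19 (adjusted *p* = 0.053) and passed under 5 of 10 other settings (lowest limma adjusted *p* = 0.024). *Pcna*, the sliding clamp, gave -0.21 (adjusted *p* = 0.33, SE 0.15). The difference between any of these lists and the clustered histone probes was not tested.

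**Figure D5:**
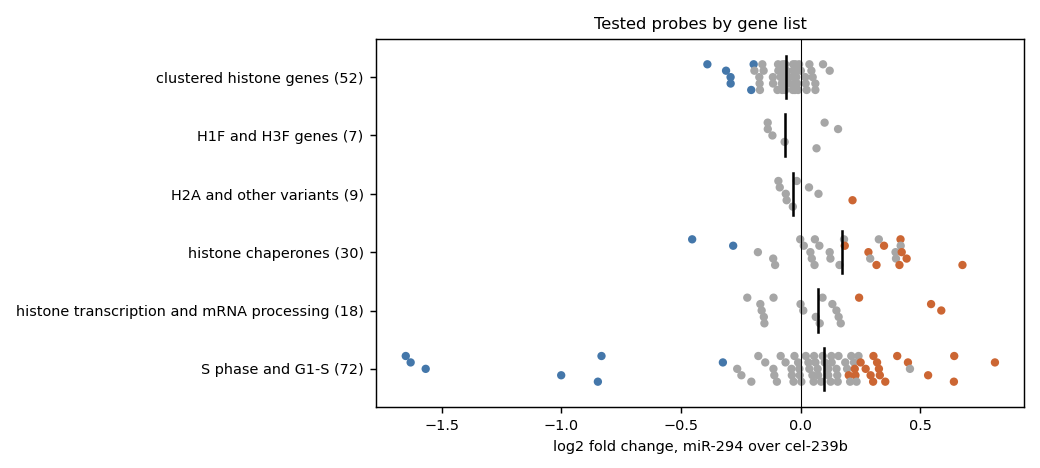
Log2 fold change (horizontal axis, miR-294 over cel-239b) of each tested probe of the clustered histone genes, the H1F and H3F genes and the 4 lists of related genes, with the number of probes in brackets. Blue points were lower and orange points higher at an adjusted *p*-value below 0.05, grey points did not pass, and black lines are medians. The clustered histone probes lie between -0.39 and 0.12, whereas the S phase probes detected in both groups run from -1.65 to 0.64. The point at 0.81 is the *Mcm4* probe detected on 0 cel-239b arrays, whose change is a bound, at least 1.15-fold.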

How the data were processed

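Total RNA was amplified from oligo(dT) primers, labelled with biotin and hybridised to 6 Illumina MouseWG-6 v2.0 arrays. The authors deposited, for each array and probe, the mean signal intensity and the bead standard deviation of that intensity, exported by GenomeStudio 1.0.6 with no normalization, together with the count of beads and a detection score as a fraction from 0 to 1. A further 24 columns were not used. Groups were taken from the sample titles.

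Analysis was done with limma 3.58.1 (R 4.3.3). Background was subtracted by normexp using the detection *p*-values, and signals were offset by 16, log2 transformed and then quantile normalised. A linear model with empirical Bayes moderation (prior share 0.01) was fitted over the 14621 probes detected (score above 0.99) on at least 3 arrays. The threshold was an adjusted *p*-value below 0.05, in place of the *B*-statistic above 5 of the study's methods, which is given beside it. The steps were tested on simulated data.

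By rule, those named were the member probes past the threshold, all linker and H3F probes and, in the lists, *Slbp*, *Npat*, *Nasp*, *Asf1b*, *Chaf1a*, *Pcna*, *Ccne1*, *Ccne2*, *Cdkn1a*, *Mcm2* and the 3 largest increases and decreases past it. Others in the text lie outside this rule, such as HIST1H3G, HIST1H4A, HIST1H4J, HIST1H4K, HIST1H2AD, *Casp8ap2* and *Lsm11*. The members and lists were chosen with earlier results of these data known. Probe sequences were not used here, and the number of arrays limits the precision.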

Additional observations from a re-analysis of the deposited data

How the results depend on the processing

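The alternatives were no background correction, an offset of 50, cyclic loess, median scaling, a variance-stabilizing transformation, other detection filters, array quality weights, a single probe per gene, the *B*-statistic threshold, the replicate number as a block, and each array left out. The count of lower clustered probes was 4 to 7 under the other normalizations, filters, weights and a single probe per gene, 0 with the *B*-statistic above 5, and 1 to 3 with an array left out. The deviations of same-numbered arrays from their group means had correlations of 0.14, -0.08 and 0.14. Those of differently numbered arrays were -0.20 to 0.08. These values do not settle whether the numbers pair the samples, and the labels do not say. With the replicate block, 2 clustered probes were lower, HIST1H2AE and HIST2H2AA1 (3.85%, all tested probes 14.8%). No clustered probe was higher under any of the settings run. The median of the clustered probes was -0.081 to -0.037 under the other settings and -0.070 to -0.024 with an array left out. The count of lower H1F and H3F probes was 1 with the variance-stabilizing transformation (H3F3B probe 1980561, adjusted *p* = 0.047 from limma) and 0 to 1 with an array left out. The direction of single probes was followed only for those of the naming rule above and the lower S phase probes. Among them H3F3B probe 4900450 ranged from -0.25 to 0.079 with an array left out. It turned positive without cel-239b replicate 1 (0.079) or miR-294 replicate 1 (0.020), and no other direction among them turned. Median scaling left both HIST1H1C probes short of the threshold, with adjusted *p*-values of 0.11 and 0.11 (limma). The cause of these shifts was not tested, and each fit with an array left out also had fewer arrays. Signal over background limits the comparison to probes that passed the detection filter, which 39 histone probes did not.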
